A study of Mus musculus with 2 samples.

Results

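Wnt ligands, their frizzled receptors and the proteins that regulate them were described in LSK cells of wild-type and PAD4-deficient mice. The genes were chosen by name: every non-control probe whose gene name in the scanner files was that of a Wnt, Fzd, Dkk, Sfrp, Axin, Nkd or Dvl gene, Lgr4, Lgr5 or Lgr6, or was Lrp5, Lrp6, Apc, Gsk3a, Gsk3b, Rnf43, Znrf3, Notum or Porcn. This gave 55 of the 27597 genes on the array, read by 82 probes, with no probe carrying the name Notum. A probe matched to Notum under another name, 5730593N15Rik, was outside the rule and was not well above background on either array. LSK cells are the lineage-negative, Sca-1-positive, c-Kit-positive fraction of bone marrow, in which the blood stem cells and early progenitors are found. They were sorted by flow cytometry from C57BL/6 mice, and Cy3-labelled RNA of wild-type and of PAD4-deficient cells was hybridised to 1 array each, on the same slide. PAD4 is the enzyme that converts arginine in histones and other proteins to citrulline. The sources used here do not state the age of the mice, the allele behind the deficiency or whether RNA of several mice was pooled.

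Wnt proteins are secreted, lipid-modified ligands that bind a frizzled receptor together with LRP5 or LRP6. In the absence of ligand, a complex of AXIN, APC and GSK3 marks beta-catenin for degradation. Bound receptors recruit dishevelled proteins, the complex is held back, and beta-catenin enters the nucleus and acts with TCF and LEF factors. In blood progenitors the strength of this signal is known to affect self-renewal, and ligands and secreted inhibitors are also made by the cells of the marrow niche.

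With 1 array per group there was no test across genotypes, and no difference below has a replicate check. A value is the processed signal of a spot, a background-subtracted linear intensity, and a difference is PAD4-deficient minus wild-type on the log2 scale after each array was divided by the 75th percentile of its signals (814 for wild-type, 786 for PAD4-deficient). The error given with a difference is the scanner error of the spots on both arrays. It does not cover variation between mice. Signals of different probes are not ranked against each other, because probes differ in how well they bind.

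The arrays and their labels were checked on a few genes. Padi4, which encodes PAD4, kept between 21.2% and 24.2% of its wild-type signal at its 3 probes on the PAD4-deficient array. The deleted part of the gene is not stated in the sources used here, so these probes may lie outside it. All 12 LSK markers examined were well above background on both arrays. Kit differed by 0.07 (error 0.06) and Ly6a, which encodes Sca-1, by -0.14 (error 0.20). Of the 12 markers 6 were above 0 and the median was -0.02. The marker farthest from 0 was Flt3, a receptor of multipotent and lymphoid progenitors, at -0.67 (error 0.20), past 1.5-fold, while Slamf1 had 0.47 (error 0.22) and Procr -0.38 (error 0.20). The arrays also differed in sex-linked transcripts. All 4 Xist probes were detected in PAD4-deficient cells and none in wild-type cells. The Y-linked Ddx3y, Eif2s3y and Kdm5d were lower in PAD4-deficient cells but were still detected there. Ddx3y differed by -1.36 (error 0.20) at its brighter probe, which kept 38.9% of its wild-type signal, and its other probe kept 34.2%. Eif2s3y kept 42.6% and Kdm5d 44.4%. Whether the PAD4-deficient RNA came from mice of both sexes was not tested. Genotype and the difference in sex-linked transcripts cannot be told apart.

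Detection is given by role, as counts with no test between roles. A probe was taken as detected when the scanner software marked it well above background, and a gene as measured when a probe was detected on both arrays. Of the 55 genes, 35 were detected in wild-type and 34 in PAD4-deficient cells, which is 63.6% and 61.8% of them. The shares over all genes on the array were 63.6% and 64.0%. On both arrays 33 of the 55 were measured (61.7% of all genes were), 3 were detected on 1 array and 19 on neither (34.1% of all genes). All 3 dishevelled genes, both LRP co-receptors, Porcn and 4 of 5 genes of the destruction complex were measured. Of 10 frizzled receptors 8 were measured, but of 19 Wnt ligands only 8 and of 8 secreted inhibitors only 2.

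**Figure D1:**
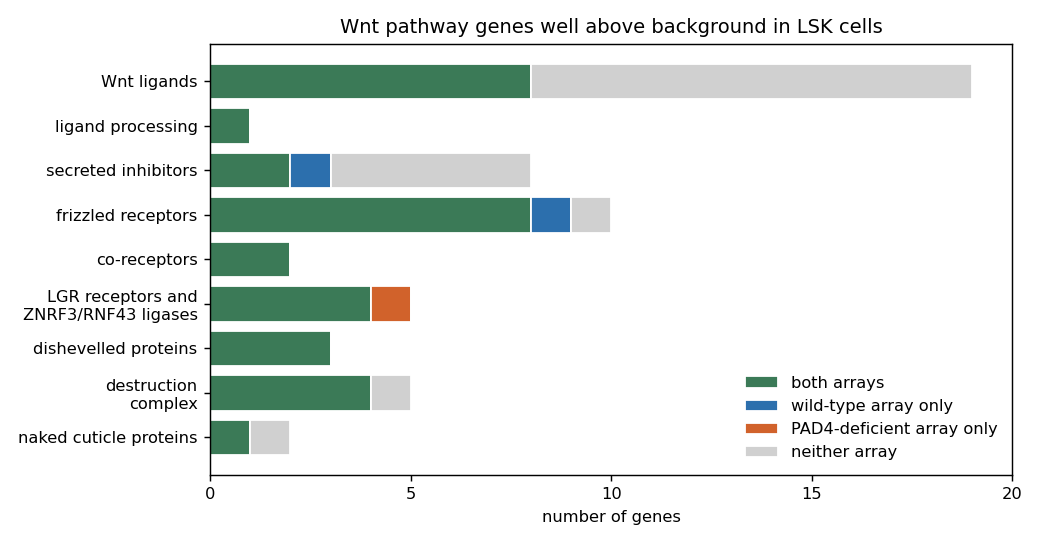
Number of Wnt pathway genes by role (bars, number of genes) that were well above background on both arrays, on the wild-type array only, on the PAD4-deficient array only or on neither. The 11 undetected Wnt ligands and 5 undetected secreted inhibitors make up 16 of the 19 genes detected on neither array.

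The 19 undetected genes lay close to the lower end of the scale. At the brightest probe of each gene, their signals ran from 3.61 to 17.1, against 17.7 and 18.5 for the dimmest probes well above background in wild-type and PAD4-deficient cells. Under a looser call of the software, a signal positive and significant against background, 12 of the 19 passed on both arrays, among them 7 of the 11 ligands, and 6 passed on neither. The 6 were Wnt2, Wnt2b, Wnt8a, Axin2, Dkk2 and Dkk4. Passing the looser call was common across the array. On both arrays 21563 of all 27597 genes passed it, as did 48 of the 55 Wnt pathway genes. Wnt5a, the ligand most studied in non-canonical signalling, had 4.16 in wild-type and 4.49 in PAD4-deficient cells and passed the looser call on 1 array. Wnt3a, the standard canonical ligand, had 8.32 and 4.48. Wnt3, Wnt4, Wnt7a, Wnt8b, Wnt9a and Wnt16 were likewise below detection. Axin2, the most widely used target gene of the pathway, had 3.92 and 3.99 at its single probe, near the lowest signal of any probe on each array (3.51 and 3.62). Its level in LSK cells, and any difference in it, was thus not measurable with this probe. Fzd10, Nkd2, Dkk1, Dkk3 and Sfrp4 were the others below detection.

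The measured genes were mostly dim, and their differences were mostly small. Their median signal was 89.2 for wild-type and 80.6 for PAD4-deficient cells, against 724 and 706 for all 17023 measured genes. Of the 33 genes, 20 were lower and 13 higher in PAD4-deficient cells, and the median difference was -0.10 (0.02 over all measured genes, of which 55.0% were above 0). None of the 33 was at least 2-fold higher (1.01% of all measured genes) and 2, Lgr4 and Lgr6, were at least 2-fold lower (0.476%). At 1.5-fold, 4 were higher (2.88%) and 4 lower (1.87%), or 8 in either direction (4.75%). The higher genes were Wnt9b, Wnt10a, Sfrp1 and Znrf3, and the lower genes were Lgr4, Lgr6, Wnt10b and Fzd9. A difference of over 2 scanner errors was found in 9 of the 33 (8.09% of all measured genes), these 8 and Axin1. Dim genes reached 1.5-fold more often across the array: 12.0% of genes with a signal under 100 on an array did, against 2.36% of genes with 100 or more on both. Among the Wnt pathway genes this was 6 of 19 and 2 of 14.

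**Figure D2:**
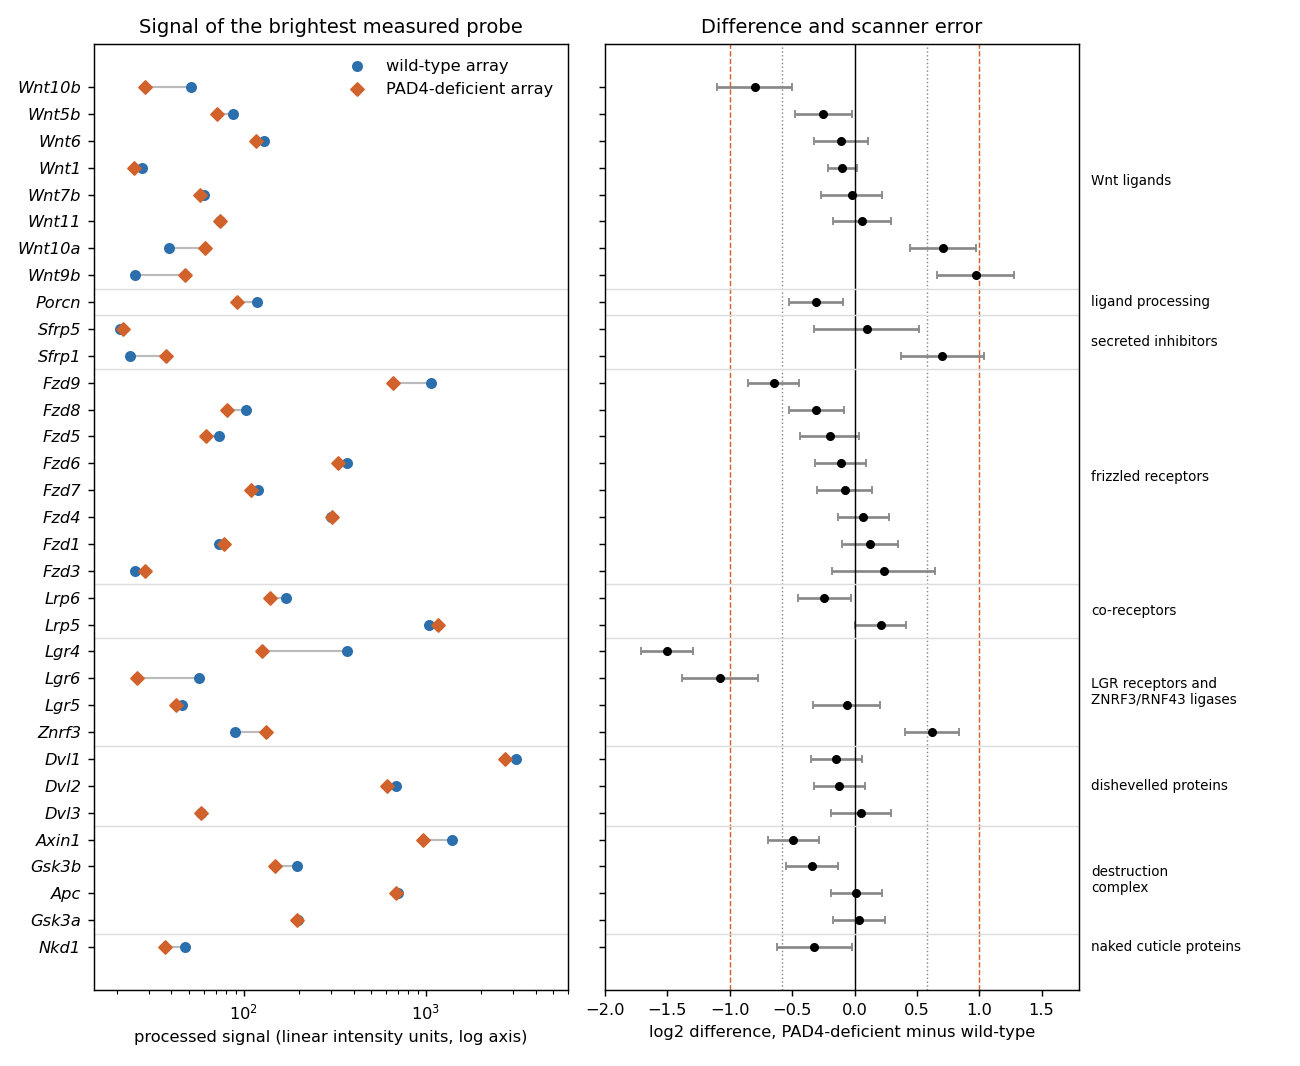
Left, processed signal (log axis) of the brightest measured probe of each of the 33 measured genes on the wild-type (circles) and PAD4-deficient (diamonds) array. Right, log2 difference, PAD4-deficient minus wild-type, with the scanner error as bars; dotted lines mark 1.5-fold and dashed lines 2-fold. Lgr4 and Lgr6 lie past 2-fold on the lower side, and Wnt9b, at 0.97, lies just inside it on the higher side.

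Among the ligands, 3 of the 8 measured genes differed by 1.5-fold, in both directions, and the median was -0.06. Wnt9b had signals of 25.2 and 47.7 in wild-type and PAD4-deficient cells, a difference of 0.97 (error 0.31) at a probe on mm8 chromosome 11, 103543658 to 103543717. Wnt10a had 38.6 and 61.0, a difference of 0.71 (error 0.26; chromosome 1, 74737266 to 74737325). Wnt10b, a canonical ligand of marrow stroma and T cells that promotes bone formation, went the other way, with 51.4 and 28.5 and a difference of -0.80 (error 0.30; chromosome 15, 98600121 to 98600180). All of these ligands were read by 1 probe and were dim. Normexp background correction with an offset of 50 adds that offset to each signal, which shrinks the differences between dim signals. Under it these 3 ligands differed by 0.38, 0.32 and -0.20, so none passed 1.5-fold. Without the offset, Wnt9b had 0.69, Wnt10a 0.52 and Wnt10b -0.43.

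The other 5 measured ligands differed by less than 1.5-fold. Wnt7b had the smallest difference, with signals of 60.1 and 57.1 (-0.02, error 0.24). Wnt11, a non-canonical ligand, had 73.5 and 74.0 (0.06, error 0.23). Wnt5b had -0.25 (error 0.23), close to its error. Wnt6 gave opposite signs at its probes, -0.11 (error 0.21) and 0.06 (error 0.29), both within their error. Wnt1 was printed in 10 spots, which show the spread of a dim probe within an array: 28.0 ± 5.05 (SD, n = 10 spots) in wild-type and 25.1 ± 3.69 (SD, n = 9 spots, 1 spot left out as an outlier) in PAD4-deficient cells. The ranges before scaling, 18.4 to 33.1 and 19.2 to 30.2, overlapped. The difference of -0.10 after scaling was smaller than the SD of the log2 signal between spots, 0.29 and 0.22.

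Several ligand genes lie next to each other in the genome, and the values of 4 such pairs are given side by side. The probes of Wnt10a and Wnt6 lie 19.2 kb apart on chromosome 1, and the first differed by 0.71 while the second differed by -0.11. The probes of Wnt10b and Wnt1 lie 21.1 kb apart on chromosome 15, with -0.80 and -0.10. Wnt9b had 0.97, while Wnt3, 88.5 kb away on chromosome 11, was not detected. Wnt3a and Wnt9a, 82.8 kb apart on the same chromosome, were both below detection. Porcn, the acyltransferase that adds the lipid to Wnt proteins before secretion, had 118 and 91.7, a difference of -0.31 (error 0.22).

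The secreted inhibitors were at the edge of detection. Of these, SFRP proteins bind Wnt proteins, and DKK proteins such as DKK1 bind the LRP co-receptors. Sfrp1 had signals of 23.7 and 37.3, a difference of 0.70 (error 0.33; chromosome 8, 24913185 to 24913244), and 0.26 with normexp and its offset. Its second probe was not well above background on either array, at 5.92 and 4.65. Sfrp5 had 20.9 and 21.6 (0.10, error 0.42). Sfrp2 was detected in wild-type cells only, with 19.4 against 11.2, lower in PAD4-deficient cells by at least 1.01-fold. That bound is close to no difference, and the direction of Sfrp2 was set by how it was detected. Over all genes, 1.87% were detected on the wild-type array only and 2.28% on the PAD4-deficient array only. None of the 4 Dkk genes was detected.

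Of the 8 frizzled receptors measured, 7 differed by less than 1.5-fold. Their median was -0.09. Fzd9 was the exception. Its wild-type signal was 1061 and its PAD4-deficient signal 655, or 63.9% of the wild-type value after scaling. Its difference was -0.65 (error 0.20) at a single probe, chromosome 5, 135533572 to 135533631. That probe was matched to Fzd9 through the gene symbol and not through a RefSeq transcript. The difference hardly depended on the background correction, with -0.58 under normexp with the offset and -0.62 without it. At -0.58 it fell just short of 1.5-fold.

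Fzd4, the receptor for norrin as well as Wnt proteins, had 301 and 305, the smallest difference of the family (0.07, error 0.21). Fzd6 had 369 and 330 (-0.11, error 0.21), and Fzd7 had 120 and 109 (-0.08, error 0.22). These 3 receptors were read at signals over 100 on both arrays and did not differ beyond their error. Fzd5 was lower by both of its probes, -0.20 (error 0.24) and -0.28 (error 0.25). Fzd8 had -0.31 (error 0.22), Fzd1 0.12 (error 0.23) and Fzd3 0.23 (error 0.41). A further probe, named D930050A07Rik in the files and matched to Fzd3 through a synonym, was outside the rule and gave -0.14 (error 0.22), so the sign of Fzd3 was not settled. Fzd2 was detected on the wild-type array only, with 26.8 against 17.5 and a difference of -0.57 (error 0.42). It was lower in PAD4-deficient cells by at least 1.40-fold, a bound that leaves out this error. Because Fzd2 was counted only through the array on which it is high, its direction was set by how it was detected.

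The co-receptors LRP5 and LRP6 did not pass 1.5-fold and had opposite signs. Lrp5 had 1034 and 1156 (0.21, error 0.20), and Lrp6 had 170 and 139 (-0.24, error 0.21). A second probe matched to Lrp6 through a synonym, C030016K15Rik in the files, gave -0.03 (error 0.21). Both kept their sign under each of 13 other settings of the processing, Lrp5 from 0.15 to 0.22 and Lrp6 from -0.30 to -0.16. Settings that choose among probes or change the filter cannot move a gene with 1 probe. These ranges thus come from the settings of background and scaling.

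The R-spondin receptors and the ubiquitin ligases they control held the 2 genes past 2-fold. LGR4, LGR5 and LGR6 bind R-spondins and so hold back ZNRF3 and RNF43, which remove frizzled receptors from the cell surface. Lgr4 had signals of 368 and 125 at its brightest probe, a difference of -1.50 (error 0.21), so the PAD4-deficient array had 35.3% of the wild-type value. Lgr6 had 56.6 and 25.8, a difference of -1.08 (error 0.30; chromosome 1, 136803616 to 136803675). Znrf3 was higher on the PAD4-deficient array, with 89.2 and 133 and a difference of 0.62 (error 0.22; chromosome 11, 5176747 to 5176806). Rnf43 was detected on the PAD4-deficient array only, with 37.7 against 20.6 and a difference of 0.92 (error 0.42). The at-least fold of Rnf43, 1.89 on the higher side, is this measured difference itself and leaves out its error. The second Rnf43 probe was not well above background on either array, at 3.88 in wild-type and 4.02 in PAD4-deficient cells. Lgr5, the intestinal stem cell marker of the family, had 46.0 and 42.5 (-0.06, error 0.27). Rnf43 was counted only through the array on which it is high, so its direction was set by how it was detected.

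The value of Lgr4 depended on the probe. The probe with -1.50 spans 1387 bases on mm8 (chromosome 2, 109790592 to 109791978), more than its own 60 bases, so it crosses an exon junction. The other measured probe lies 22.7 kb further along the gene (109814689 to 109814748) and had 46.3 and 40.4, a difference of -0.15 (error 0.29). The remaining 2 Lgr4 probes were not well above background on either array. The mean of the measured probes was -0.82. The only measured Lgr6 probe was dim, and normexp with its offset gave -0.34 (-0.68 without it), while Lgr4 kept -1.17 and -1.41. Znrf3 had 0.39 and 0.53 under those settings and 0.57 with median scaling, each below 1.5-fold.

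**Figure D3:**
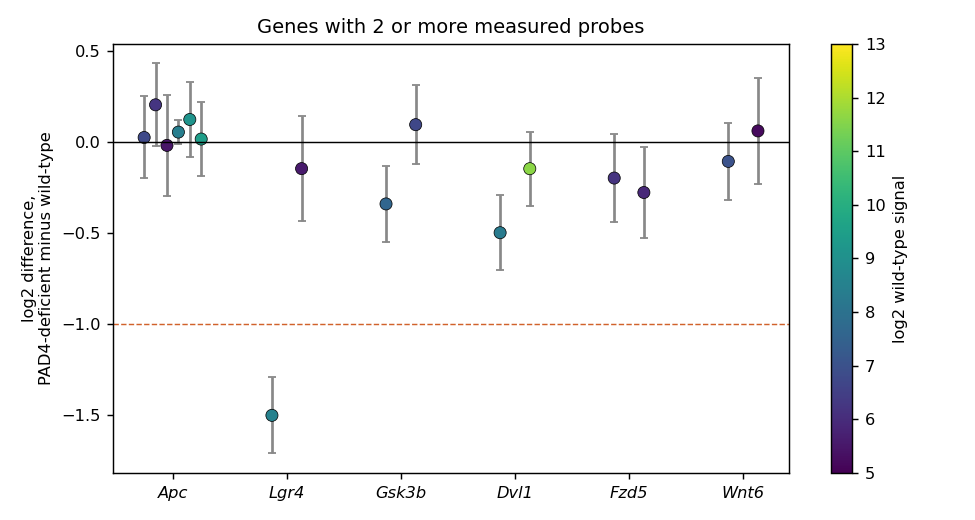
Log2 difference, PAD4-deficient minus wild-type, of each measured probe of the 6 genes with 2 or more measured probes, in order along the chromosome, with the scanner error as bars and the wild-type signal as colour. The Apc probes lie between -0.02 and 0.20, while the Lgr4 probes lie at -1.50 and -0.15.

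The upstream sequences of the 2 genes past 2-fold are shown with those of 2 feedback genes of the pathway, Axin2 and Dkk1, which were below detection. Each line is the 250 bases before the annotated start in RefSeq on GRCm38.p6, written along the gene's strand. They are chr2:109917397-109917646 (plus strand) for Lgr4, chr1:135105277-135105526 (minus) for Lgr6, chr11:108920099-108920348 (plus) for Axin2 and chr19:30549497-30549746 (minus) for Dkk1. Capitals mark the core words of TCF/LEF sites, which are CTTTG followed by AA, AT, TA or TT, searched on both strands.
Lgr4: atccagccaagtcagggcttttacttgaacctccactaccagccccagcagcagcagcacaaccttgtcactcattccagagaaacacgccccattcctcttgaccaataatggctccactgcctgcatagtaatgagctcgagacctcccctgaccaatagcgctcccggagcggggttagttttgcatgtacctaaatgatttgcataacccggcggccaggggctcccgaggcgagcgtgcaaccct
Lgr6: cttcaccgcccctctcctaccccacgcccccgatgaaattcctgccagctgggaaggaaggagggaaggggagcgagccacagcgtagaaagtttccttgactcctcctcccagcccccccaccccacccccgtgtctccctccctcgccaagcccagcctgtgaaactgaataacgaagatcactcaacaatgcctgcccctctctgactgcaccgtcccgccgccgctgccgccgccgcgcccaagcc
Axin2: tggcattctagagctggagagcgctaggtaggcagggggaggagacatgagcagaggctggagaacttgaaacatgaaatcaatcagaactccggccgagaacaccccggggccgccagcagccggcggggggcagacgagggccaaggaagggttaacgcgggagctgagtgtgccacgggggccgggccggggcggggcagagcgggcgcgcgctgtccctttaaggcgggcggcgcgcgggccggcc
Dkk1: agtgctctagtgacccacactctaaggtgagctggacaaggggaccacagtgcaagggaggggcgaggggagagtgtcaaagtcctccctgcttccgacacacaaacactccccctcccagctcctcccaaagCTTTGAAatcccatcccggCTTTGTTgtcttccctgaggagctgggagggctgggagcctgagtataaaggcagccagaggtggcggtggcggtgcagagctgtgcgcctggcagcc
The Dkk1 window held 2 of the words and the other windows held none. Windows were at hand for 36 of the 55 genes, and 5 of their 40 windows held a word, 12.5%, against 14.8% of the 32851 windows of all genes. The other windows with a word were those of Fzd7, Gsk3a, Wnt5b and Wnt11, each with a difference of less than 1.5-fold. A match of these letters is a description of the window and not a bound site.

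Inside the cell, the dishevelled genes differed little at their brightest probes. Dvl1 had signals of 3102 and 2705 (-0.15, error 0.20), Dvl2 had 687 and 610 (-0.12, error 0.20), and Dvl3 had 58.1 on both arrays (0.05, error 0.24). A second Dvl1 probe, which crosses an exon junction, had 315 and 215 and a difference of -0.50 (error 0.21), still under 1.5-fold. Nkd1, an antagonist that binds dishevelled, had 47.5 and 36.7 (-0.32, error 0.30).

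In the destruction complex the scaffold Axin1 was lower and the other measured members were close to 0 or had probes that disagreed. Axin1 had 1396 and 960, a difference of -0.49 (error 0.20) at its single probe (chromosome 17, 25921687 to 25922574). It stayed between -0.55 and -0.47 under the 13 other settings, below 1.5-fold in each. With 1 probe, it could not be moved by those that choose among probes or change the filter. Gsk3a, 1 of the 2 kinases, had 197 and 195 (0.03, error 0.21). Gsk3b, the other, had -0.34 (error 0.21) at a probe across an exon junction and 0.09 (error 0.22) at its other probe, so its direction was not settled.

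Apc, the tumour suppressor in the complex, was the most closely measured of the genes. It was measured at all 6 probes, and their differences ran from -0.02 to 0.20, each within its error. The probe printed in 10 spots had 333 ± 7.48 (SD, n = 10 spots) in wild-type and 334 ± 8.31 (SD, n = 10 spots) in PAD4-deficient cells. The spot ranges before scaling were 319 to 347 and 317 to 345. After scaling to the 75th percentile, this probe differed by 0.05 (error 0.06), and the SD of its log2 signal between spots was 0.032 and 0.036. No Apc probe differed by more than its scanner error.

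Other genes of the pathway were examined through a list of 79, of which 78 were on the array under the names used and 61 were measured. Past 1.5-fold, 4 of these were higher (2.88% of all measured genes were) and none lower (1.87%), with a median of -0.04. The higher genes were the nuclear factors Lef1 (0.98, error 0.23) and Tcf7 (0.96, error 0.22) and the targets Myc (0.87, error 0.06) and Id2 (0.72, error 0.20). None of the 15 measured genes of secretion, extracellular control and other receptors, and none of the 19 cytoplasmic genes, passed 1.5-fold, with medians of -0.03 and 0.01. The 16 nuclear genes had a median of -0.09 and the 11 targets -0.06.

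Markers of other cell types differed between the arrays. The summed level of a list is the sum over its measured genes of the signal divided by the array's 75th percentile. For 10 of 17 stromal and endothelial markers measured, it was 19.3 in wild-type and 17.0 in PAD4-deficient cells. The largest terms of this sum were Runx2 (-0.23, error 0.07) and Emcn (-0.07, error 0.20), with wild-type signals of 6246 and 5364. Cxcl12 and Bgn had wild-type signals of 183 and 175 and added little to it. Cxcl12, made by niche stroma, had -1.51 (error 0.22) and Bgn -0.63 (error 0.21), and no marker of the list was 1.5-fold higher. Of the 10 measured, 4 were above 0, with Col1a2 at 0.50 (error 0.20), Kdr at 0.32 (error 0.09) and Tek at 0.24 (error 0.21), and the median was -0.09. Lepr, Pdgfra, Col1a1, Col3a1, Dcn, Cdh5 and Sp7 were below detection on both arrays. B and plasma cell markers had 14.2 and 23.8, with 10 of 10 above 0, 6 of them past 1.5-fold, and a median difference of 0.81. Neutrophil and monocyte markers had 215 and 296, with 13 of 13 above 0, 4 past 1.5-fold, and a median of 0.54. The largest terms of this sum were Mpo (0.58, error 0.20) and Lyz2 (0.06, error 0.20), with wild-type signals of 81966 and 52689. Erythroid markers had 6.70 and 7.85, with 6 of 8 above 0, 5 past 1.5-fold and 4 past 2-fold, and a median of 1.25. Those past 2-fold were Ermap (2.52, error 0.28), Rhd (1.99, error 0.22), Car1 (1.73, error 0.20) and Klf1 (1.63, error 0.21). Hba-a1, the largest term of the erythroid sum, had -0.22 (error 0.20) and Alas2 had -0.47 (error 0.21), while Slc4a1 had 0.05 (error 0.21). Of 11 T and NK cell markers, the 7 measured had 25.6 and 24.3, with 2 above 0, 1 past 1.5-fold on the lower side and a median of -0.29. The marker past 1.5-fold was Prf1, which was dim, with 42.6 and 27.2 (-0.60, error 0.32). The largest term of the T and NK sum was Nkg7 (-0.02, error 0.20), with a wild-type signal of 16948. Cd3d and Cd8a were detected on the PAD4-deficient array only, and Cd3g and Ncr1 on neither. The part of these cells in the differences of the Wnt pathway genes was not tested. Fewer cells of a type and less RNA per cell cannot be told apart in bulk RNA. Whether the markers were read from such cells or from LSK cells themselves was not tested either. A summed level is thus not an amount of other cells.

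**Figure D4:**
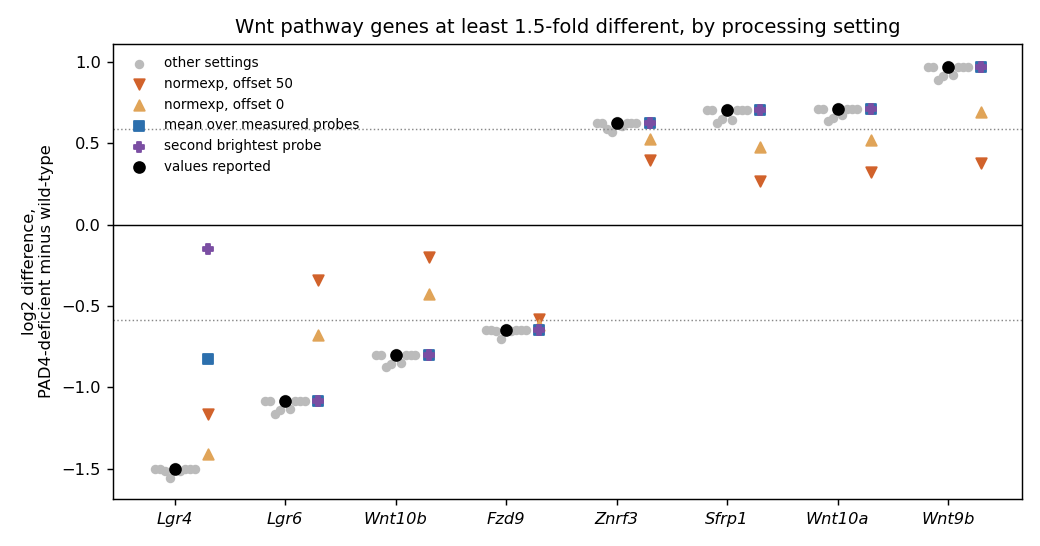
Log2 difference, PAD4-deficient minus wild-type, of the 8 genes at least 1.5-fold different (black) and their values under other processing settings (grey and coloured symbols); dotted lines mark 1.5-fold. No gene changed sign, but normexp with an offset of 50 left Lgr4 alone past 1.5-fold, at -1.17, and the second measured Lgr4 probe lay at -0.15.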

How the data were processed

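Gene expression was measured in LSK cells on 1 wild-type and 1 PAD4-deficient 1-colour Agilent array. Per the file headers, the arrays were of design 014868, read with Feature Extraction 9.5.3.1, with probe positions on mm8. Version 9.5 of that software is named in the submitters' processing notes. Exons and UTRs were not assigned, as no mm8 annotation was used here.

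In the deposited scanner files each spot has a linear intensity, background-subtracted and detrended by the authors' software, with an error and flags per spot. The deposited value table holds log2 of the median signal over a probe's spots less a constant per array, 9.67 for wild-type and 9.62 for PAD4-deficient, for all 41174 probes, with column medians of -3.59 and -3.53. Its scale, centring and direction were thus settled, and it served as an alternative.

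The value of a probe was the log2 processed signal, as the mean over spots not flagged as outliers, minus the array's 75th percentile over non-control probes. This left 41170 probes, of which 24371 were named through an accession, 6301 through the symbol and 2426 through a synonym of the RefSeq table of GRCm38.p6, while 8072 names were left as in the files. A gene's value came from its brightest probe measured on both arrays. A gene detected on 1 array has an at-least fold, in which the dim side is set to its own value or to the lowest detected value of that array, whichever is higher. The scanner error is not part of this fold. No probe of these genes was saturated.

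The genes and lists were chosen with earlier results of these data known. Every gene was named. The rule gave full values for genes 1.5-fold different, genes detected on 1 array with an at-least fold of 1.5 or more, the gene closest to 0 in each role and genes with probes of opposite sign. Signals of further genes were added to describe their role, chosen after their values were seen. The steps were tested on simulated data. Normexp was run with limma 3.58.1 (R 4.3.3), and all else in Python 3.11.15 with pandas 2.3.3, numpy 2.4.6 and statsmodels 0.14.6.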

Additional observations from a re-analysis of the deposited data

How the results depend on the processing

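The results were recomputed under 13 other settings and with other fold thresholds. No paired analysis was possible because there was a single array per group, and no replicate could be left out. The count at least 2-fold lower, 2, became 1 with normexp and an offset of 50, with normexp without offset, with the mean over measured probes and with the second brightest probe. It was 4 at 1.5-fold and 0 at 3-fold, and the count at least 2-fold higher, 0, was 4 at 1.5-fold. The counts at least 1.5-fold higher and lower, 4 and 4, became 0 and 1 with normexp and its offset, and the higher count became 1 without the offset. The higher and lower counts were 6 and 7 with the looser detection call. They were also 6 and 7 with no filter on signal, where all 55 genes count as measured. The median of the genes, -0.10, became -0.15 with median scaling, which shifts all genes alike, and 0.034 with no filter. The median of the R-spondin receptors and ligases, -0.57, became -0.063 with the looser call, -0.063 without a filter and -0.063 with probes detected on either array, as Rnf43 entered. It was -0.16 and -0.33 with normexp with and without the offset and -0.11 with the second brightest probe. The median of the destruction complex, -0.16, was 0.064 with the second brightest probe and 0.015 without a filter, while that of the ligands, -0.06, was 0.059 with no filter. Where no construction is named, the cause was not tested. Of the 33 measured genes, normexp with its offset moved 7 by more than their scanner error, normexp without it 2, the mean over probes 2 and the second brightest probe 3. Quantile, loess, percentile and median scaling, the deposited value table, kept outlier spots and looser filters moved none by that much. The filters change which probes count and cannot move a gene with 1 probe. Signal over background limits the dim genes: 19 of the 33 had a signal under 100 on an array.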

Other observations

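Among all 5876 genes with 2 or more measured probes, the median range between probes of a gene was 0.18 on the log2 scale, and 59.2% had probes that all shared 1 sign. The range of Lgr4 was 1.35, and 44 of these genes (0.749%) had a range at least as large.

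The 250 bases upstream of these genes were rich in CpG dinucleotides whether or not the gene was detected. The median was 16 CpGs over 23 windows of genes measured on both arrays and 23 over 14 windows of genes detected on neither, against 6 over the windows of all genes. The GC content had medians of 65.2%, 68.6% and 52.4%. Wnt4, with 44 CpGs, and Wnt9a, with 48, were below detection; these 2 were picked after their values were seen.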
